A study of Mus musculus with 11 samples.

Results

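Accessible chromatin was examined at 5 genes that CD8 T cells use to act on other cells: the cytokine genes Ifng, Tnf, Csf2 and Il10 and the death ligand gene Fasl. A region counted toward a gene if, among protein-coding genes of RefSeq (mouse build mm10), that gene's span was the closest and at most 100 kb away. This gave 91 of 111041 regions, with 38 at Ifng, 2 at Tnf, 14 at Csf2, 9 at Il10 and 28 at Fasl. Only 7 of the 91 lay inside a gene span, 27 lay more than 50 kb from it, and closeness does not tell which gene is controlled from a region. The measure was ATAC-seq, in which a transposase inserts adapters into open chromatin. It was run on sorted mouse CD8 T cells carrying a YFP reporter for Tcf7, the gene of TCF-1, a factor of naive and memory T cells.

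There were 11 libraries in 6 groups, all from spleen and all with the reporter. The naive group (1 library) was sorted without culture as CD44-negative, CD62L-positive and YFP-positive, and the antigen-experienced group (1 library) as CD44-positive, CD62L-positive and YFP-positive. The effector group (1 library) was activated in culture for 3 days. The day 9 groups came from cells that were split by YFP level at day 3, returned to culture and split again at day 9. High_to_high cells (2 libraries) were YFP-high at both sorts, low_to_high cells (3 libraries) were YFP-low at day 3 and YFP-high at day 9, and low_to_low cells (3 libraries) were YFP-low at both. The labels name no antigen, and nothing in them ties replicates to different mice or cultures, so p-values below may reflect technical spread alone. The 3 single libraries allow no test against any group.

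Interferon gamma, the product of Ifng, activates macrophages and raises antigen presentation. TNF acts on inflamed tissue through a pair of receptors, GM-CSF (Csf2) acts on myeloid cells, and IL-10 restrains inflammation. Fas ligand kills target cells that carry Fas. Naive CD8 T cells make little of these proteins. Activated and memory CD8 T cells can make several of them rapidly once the T cell receptor is engaged. Factors such as NFAT, AP-1, NF-kB and T-box and RUNX proteins take part.

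The promoter windows are shown because peaks lay on 3 of the 4 given here, so that the letters under the signal can be read. Each is the 250 bases before the gene start in RefSeq (build GRCm38.p6), written on the strand of the gene. Ifng is at chr10:118440796-118441045 (plus strand), Tnf at chr17:35202008-35202257 (minus strand), Fasl at chr1:161788496-161788745 (minus strand) and Csf2 at chr11:54249900-54250149 (minus strand). Il10 is named without a window. Capitals mark matches, on either strand, to NFAT (GGAAA), NF-kB (GGG and CC with 5 free bases between), RUNX (TGNGGT), AP-1 (TGANTCA) and T-box (TNACACC) letters.
Ifng: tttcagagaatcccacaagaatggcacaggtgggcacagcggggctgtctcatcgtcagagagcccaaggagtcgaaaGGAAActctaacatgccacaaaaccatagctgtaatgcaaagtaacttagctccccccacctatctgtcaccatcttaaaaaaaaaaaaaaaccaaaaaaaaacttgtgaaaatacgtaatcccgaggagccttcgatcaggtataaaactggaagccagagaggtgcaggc
Tnf: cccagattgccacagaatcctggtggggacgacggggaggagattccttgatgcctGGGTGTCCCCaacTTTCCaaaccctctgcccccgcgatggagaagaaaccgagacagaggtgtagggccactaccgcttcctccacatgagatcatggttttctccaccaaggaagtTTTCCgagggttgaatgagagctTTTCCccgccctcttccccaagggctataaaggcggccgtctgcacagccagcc
Fasl: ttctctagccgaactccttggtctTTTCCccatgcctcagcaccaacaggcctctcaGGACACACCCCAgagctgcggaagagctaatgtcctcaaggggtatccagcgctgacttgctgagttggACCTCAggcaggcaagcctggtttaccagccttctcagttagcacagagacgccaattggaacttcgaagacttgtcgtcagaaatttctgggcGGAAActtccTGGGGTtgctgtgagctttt
Csf2: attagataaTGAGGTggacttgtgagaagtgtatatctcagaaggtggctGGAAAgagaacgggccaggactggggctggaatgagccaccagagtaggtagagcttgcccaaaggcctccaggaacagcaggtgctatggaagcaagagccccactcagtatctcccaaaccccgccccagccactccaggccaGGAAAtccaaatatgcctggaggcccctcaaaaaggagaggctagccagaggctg

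A region covered 236 of the 250 bases of the Ifng window, 111 of the Tnf window and 103 of the Fasl window. No region touched the Csf2 window, and the nearest lay 260 bp away, inside the gene. The Ifng window held 1 NFAT match. The Tnf window held 3 NFAT matches and an NF-kB match at 1 place that reads on both strands. The Fasl window held 2 NFAT, 1 NF-kB and 3 RUNX matches, with the NF-kB match and 1 RUNX match overlapping, and the Csf2 window held 2 NFAT and 1 RUNX match. AP-1 and T-box letters were in none of the 4. Among 32851 windows of this length, 55.6% held the NFAT letters, 45.8% the NF-kB letters, 40.1% the RUNX letters, 8.61% the T-box letters and 6.75% the AP-1 letters. The NFAT, NF-kB and RUNX letters are therefore common, and a match does not show a bound site.

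The deposited signal of a peak was a normalized tag count, meaning tags within the window of the peak scaled to 10 M tags a library. Libraries held 20.8 to 59.97 M tags and 46454 to 66117 peaks. The share of tags in peaks was 15.01 to 15.8% in the splenocyte libraries, 9.01 to 10.2% in YFP-high and 10.4 to 12.5% in YFP-low day 9 libraries. The weakest peak of a list stood at 2.25 to 4.32, and a filter on the surrounding 10 kb had removed 36.4 to 53.3% of candidate peaks. A region missing from a list is therefore not known to be closed. The T cell markers Cd3d, Cd3e, Cd8a and Cd8b1 had a region in 11 of 11 libraries and Cd3g in 10. Of the markers of other cells, Cd79a and Csf1r had none, Ms4a1 had 1 in a single library, and Lyz2 and Ncr1 had none inside the gene.

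Of the 91 regions, 42 (46.15%) held a peak in the naive library, beside 51.69% of all regions. The antigen-experienced library held 46 (50.55%), beside 45.18%, and the effector library 55 (60.44%), beside 59.48%. At day 9 the numbers were 46 and 58 in high_to_high, 47, 46 and 48 in low_to_high, and 49, 52 and 48 in low_to_low libraries. In the same order, the member shares were 50.55, 63.74, 51.65, 50.55, 52.75, 53.85, 57.14 and 52.75%. The shares of all regions were 43.18, 55.91, 44.71, 44.03, 41.75, 46.76, 51.03 and 43.38%. In 17 regions (18.7%) all 11 libraries held a peak, beside 21.1% of all regions. A further 22 regions (24.2%) were found in the effector library alone, beside 23.4% of all regions. Of these 22, 8 lay within 500 bp of another region, and a peak that lies slightly apart in 2 libraries counts as 2 regions. Over all libraries, 32 of the 91 regions held a peak in a single library. In 5 regions (5.49%) the effector library and at least 6 day 9 libraries held a peak and neither splenocyte library did, beside 1.72% of all regions. In 12 regions (13.2%) both splenocyte libraries and at least 6 day 9 libraries held a peak and the effector library did not, beside 7.89% of all regions. Peaks in all 8 day 9 libraries and not in the effector library were found in 12 regions, beside 7.63%, and not in the naive library in 5, beside 3.22%. The splenocyte libraries alone held 4 regions, beside 8.1%, and 2 or more day 9 libraries alone held 6, beside 7.39%. Only 2 regions had a peak in the naive and in no day 9 library, beside 7.37%. None of the 91 was found in every YFP-high and no YFP-low day 9 library (0.0423% of all regions), or the other way round (0.0693%).

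**Figure D1:**
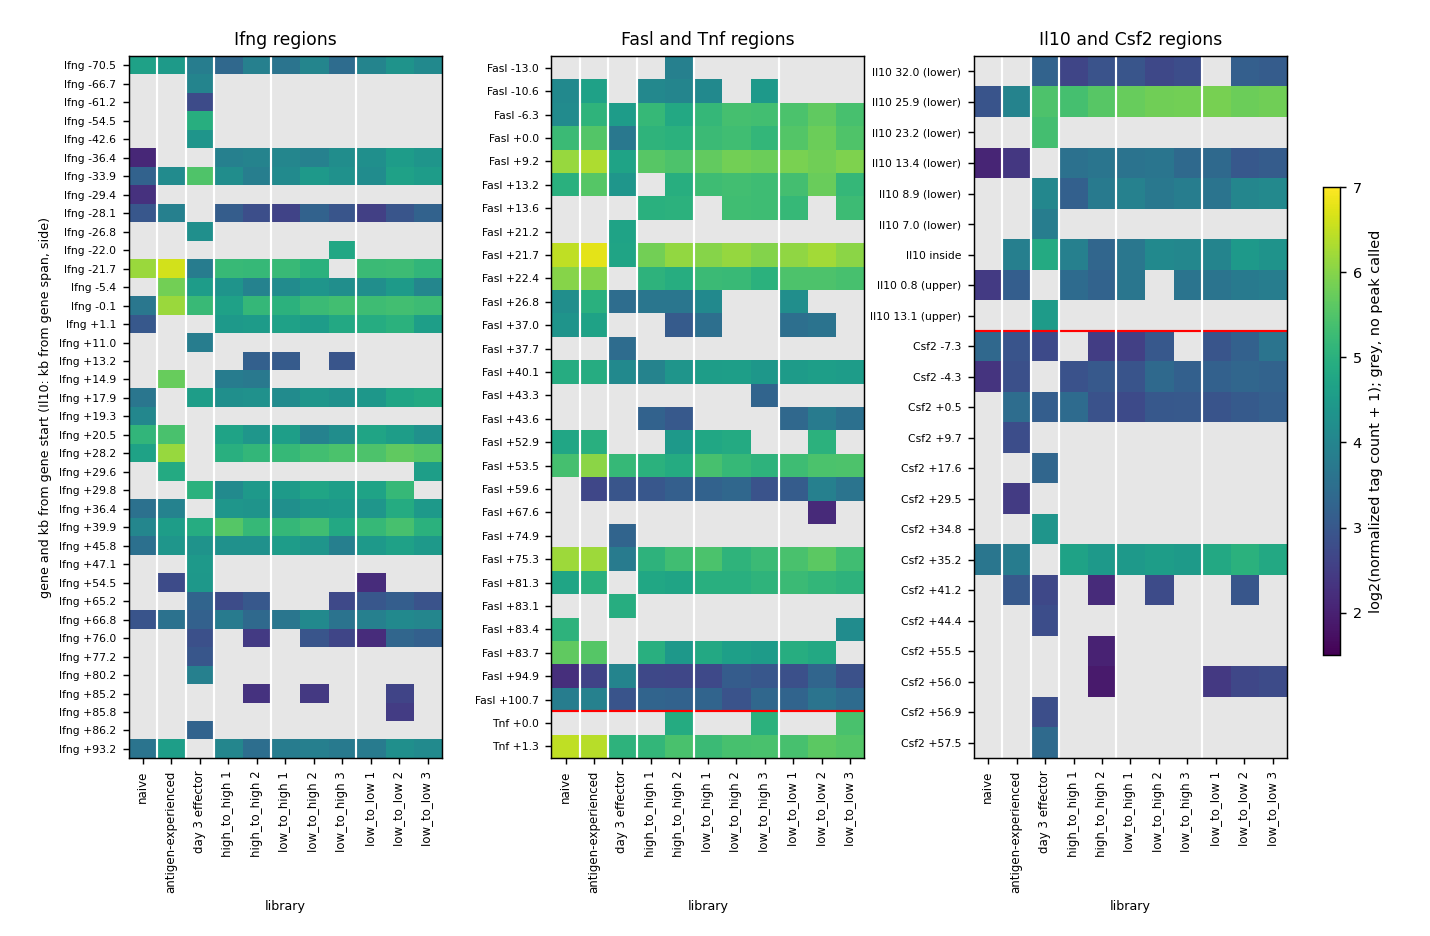
Signal of the 91 regions (rows, by gene and kb from the gene start, or from the gene span for Il10) in the 11 libraries (columns), as log2(normalized tag count + 1), with grey where no peak was called. Rows filled only in the effector column stand at Ifng, Fasl, Il10 and Csf2, and no row is filled in every YFP-high and no YFP-low day 9 library, or the other way round.

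Ifng had the most regions, and most of those that could be compared held more signal after culture than in the naive library. In the effector library 5 of the 8 Ifng regions found in both libraries were more than 2-fold higher than in the naive library (11.6% of all regions compared), and 1 was lower (9.2%). At day 9, 9 of the 14 Ifng regions found in the naive and all 8 day 9 libraries were more than 2-fold higher (9.41% of all regions compared), and 0 were lower (2.5%). In bulk libraries, more cells with open chromatin and more open chromatin per cell cannot be told apart. The folds compare log2(normalized tag count + 1) after each library is centred on its median over the regions compared, and they understate the change of low values.

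The region over the Ifng start, chr10:118440810-118441080, stood at 11.9 in the naive, 70.7 in the antigen-experienced and 36.2 in the effector library. At day 9 it stood at 24.0 and 35.0 in high_to_high, 31.7, 37.0 and 39.6 in low_to_high, and 37.9, 39.4 and 37.4 in low_to_low libraries. Each of the other 10 libraries was above the naive library, and the antigen-experienced library was the highest. Against naive, the centred log2 difference was 2.09 for effector, 2.26 for antigen-experienced and 1.74 for the mean of day 9 libraries.

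Inside the gene at 1.11 kb (chr10:118442045-118442265), the signal was 21.1 to 31.4 at day 9 and 7.06 in the naive library. Neither the antigen-experienced nor the effector library held a peak there. At -36.4 kb (chr10:118404543-118404834) it was 3.33 in the naive library, was not listed for the antigen-experienced or effector library, and was 13.8 to 22.2 at day 9. These regions had the highest day 9 differences from naive at Ifng, 1.94 at 1.11 kb and 2.29 at -36.4 kb. The region at 39.9 kb (chr10:118480877-118481097) stood at 15.3 in the naive, 22.6 in the antigen-experienced and 28.8 in the effector library, and at 27.4 to 45.7 at day 9. The other Ifng regions more than 2-fold higher at day 9 than in the naive library lay at -33.9, 17.9, 36.4, 45.8 and 66.8 kb, and their differences were 1.01 to 1.32. The 14 Ifng regions compared ran from -0.54 to 2.29, with a median of 1.13.

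The effector library stood apart at several distal Ifng regions. At -33.9 kb (chr10:118406913-118407308) it had 43.6, beside 8.39 in the naive and 16.8 in the antigen-experienced library, and day 9 libraries had 13.4 to 24.0. The centred difference there was 2.81 for effector against naive and -1.57 for day 9 against effector. In 10 of the 38 Ifng regions only the effector library held a peak, a share near the 23.4% of all regions. Their signal was 5.73 to 30, led by -54.5 kb (30) and 47.1 kb (21.2). At 29.8 kb the effector library had 31.7 and 7 day 9 libraries had 16.5 to 35.2, with no peak in either splenocyte library, although an antigen-experienced peak of 27.9 lay 17 bp away. A weaker region of that kind at 65.2 kb had 8.65 in the effector library and 5.52 to 7.88 in 6 day 9 libraries.

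The strongest Ifng region by mean went the other way. At -21.7 kb (chr10:118419234-118419438) it stood at 71.2 in the naive, 97.1 in the antigen-experienced and 13.1 in the effector library, and at 31.4 to 37.5 in 7 day 9 libraries. The centred difference was -1.79 for effector against naive. In low_to_high replicate 3 a separate peak of 26.4 lay 106 bp away. At 28.2 kb (chr10:118469154-118469397) the naive library had 24.3, the antigen-experienced library 69.7 and the day 9 libraries 30.4 to 49.6. At 20.5 kb the naive library had 33.6, the antigen-experienced library 42.0 and the day 9 libraries 14.4 to 25.1. The effector library held no peak at 28.2 or 20.5 kb.

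Few regions differed by more than 2-fold between antigen-experienced and naive cells, among the members as among all regions. Of 36 regions found in both libraries, 2 were more than 2-fold higher, beside 3.3% of 44068 regions, and 0 were lower, beside 1.27%. Both were at Ifng, over the start (2.26) and at 28.2 kb (1.27). By presence, 10 regions were in the antigen-experienced and not in the naive library, beside 5.49% of all regions, and 6 were in the naive and not in the antigen-experienced library, beside 12%. At Ifng, 4 regions held a peak in the antigen-experienced and not in the naive library. The strongest were -5.39 kb, with 55.6, and 14.9 kb, with 51.6. At -5.39 kb the effector library had 22.3 and the day 9 libraries 14.3 to 21.5. At 14.9 kb only the high_to_high libraries also held a peak, at 13.0 and 12.2. The summed signal near 4 B cell marker genes was 160.1 in the antigen-experienced and 54.99 in the naive library, with Cd79a and Ms4a1 at no region in either, and its part in these differences was not tested.

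**Figure D2:**
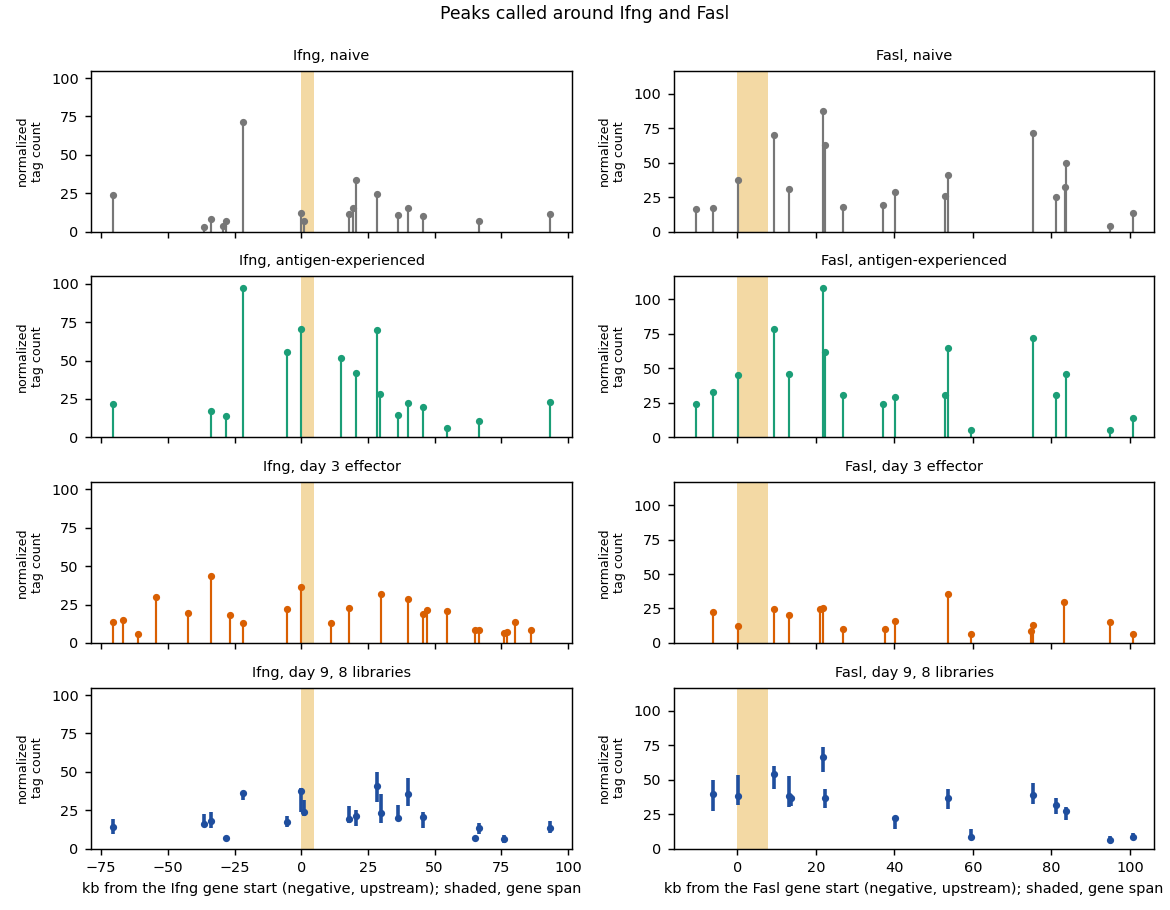
Normalized tag count of each region (height) against its distance from the gene start in kb, for Ifng (left) and Fasl (right), with the gene span shaded. Rows are the naive, antigen-experienced and effector libraries and the day 9 libraries, where the dot is the median and the bar the range for regions found in at least 6 of 8 libraries. The Ifng start stood at 70.7 in the antigen-experienced and 11.9 in the naive library, and the Fasl region at 21.7 kb at 25.3 in the effector and 87.7 in the naive library.

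Tnf, which lies beside the related genes Lta and Ltb, had 2 regions. The one at 1.35 kb inside the gene, chr17:35200552-35200769, stood at 87.3 in the naive, 84.4 in the antigen-experienced and 32.2 in the effector library. At day 9 it stood at 34.3 and 42.1 in high_to_high, 37.2, 41.0 and 41.8 in low_to_high, and 40.9, 48.3 and 44.9 in low_to_low libraries. All cultured libraries were below both splenocyte libraries. After centring, the difference from naive was -0.85 for effector and -0.81 for day 9, neither past 2-fold. The region over the Tnf start, chr17:35201891-35202118, held a peak in 3 libraries, at 28.4 in high_to_high replicate 2, 31.7 in low_to_high replicate 3 and 41.7 in low_to_low replicate 3. These values are far above the weakest listed peaks, and the signal of the other 8 libraries at this place is not known.

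Csf2 had 14 mostly weak regions, and none was found in all 11 libraries, beside 21.1% of all regions. The region inside the gene at 0.48 kb, chr11:54249198-54249640, was not listed for the naive library. It stood at 10.0 in the antigen-experienced and 7.80 in the effector library, and at 5.67 to 9.68 in the 8 day 9 libraries. At -4.34 kb (chr11:54254122-54254363) the naive library had 4, the antigen-experienced library 6.18 and the day 9 libraries 6.39 to 9.39. The strongest region, at 35.2 kb (chr11:54214468-54214837), had 11.6 in the naive and 13.0 in the antigen-experienced library. At day 9 it had 24.6 and 20.8 in high_to_high, 21.0, 22.6 and 21.6 in low_to_high, and 27.4, 31.5 and 27.3 in low_to_low libraries. The day 9 libraries lay above both splenocyte libraries, with a centred difference from naive of 1.27 at 35.2 kb and 1.09 at -4.34 kb. The effector library held neither region, but it had a peak of 19.6 lying 184 bp from the one at 35.2 kb.

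At Csf2, 5 of the 14 regions were seen in the effector library alone, at 5.92 to 19.6, beside 23.4% of all regions. One further region, at 56.0 kb, held a peak in the 3 low_to_low libraries, at 4.30, 5.38 and 5.80, and in high_to_high replicate 2, at 2.75. The weakest listed peaks stood at 2.83, 2.87 and 4.08 in low_to_low replicates 1, 2 and 3, and at 2.25 in high_to_high replicate 2.

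Il10 had 9 regions, placed here by distance from the gene span. The strongest, chr1:130993759-130993982, lay 25863 bp below the lower end of the span. It stood at 6.66 in the naive, 14.5 in the antigen-experienced and 43.1 in the effector library. At day 9 it stood at 40.7 and 46.9 in high_to_high, 51.8, 55.3 and 56.2 in low_to_high, and 58.0, 53.2 and 55.4 in low_to_low libraries. Its centred difference from naive was 3.09 for effector and 3.05 for day 9, the highest of the member regions compared in each.

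Other Il10 regions were seen mainly after culture. The region inside the gene, chr1:131022669-131023037, was not listed for the naive library and stood at 13.6 in the antigen-experienced library, 28.3 in the effector library and 9.00 to 21.4 at day 9. The region 8949 bp below the span had 15.5 in the effector library and 8.13 to 15.9 at day 9, with no peak in a splenocyte library. The effector library alone held peaks 23234 bp below the span, at 40.2, and 13124 bp above it, at 21.8. The region 829 bp above the span had 4.40 in the naive and 7.88 in the antigen-experienced library and 8.50 to 13.3 in 7 day 9 libraries. The region 32013 bp below had 8.46 in the effector library and 5.23 to 8 in 7 day 9 libraries.

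Fasl had 28 regions, and 9 of them held a peak in all 11 libraries, beside 21.1% of all regions. The region over the start, chr1:161788327-161788598, stood at 37.3 in the naive, 45.2 in the antigen-experienced and 12.1 in the effector library. At day 9 it stood at 32.7 and 31.3 in high_to_high, 37.2, 38.5 and 34.1 in low_to_high, and 45.2, 53.5 and 43.8 in low_to_low libraries. The effector library was the lowest of the 11, and the low_to_low libraries were the highest at day 9. The centred difference was -0.98 for effector against naive and 1.23 for day 9 against effector.

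The 3 strongest Fasl regions were likewise lower in the effector library. At 21.7 kb (chr1:161766664-161766935) the naive library had 87.7, the antigen-experienced library 108.2, the effector library 25.3 and the day 9 libraries 55.6 to 73.9. At 9.22 kb (chr1:161779178-161779364) the naive library had 70.2, the antigen-experienced library 78.8, the effector library 24.7 and the day 9 libraries 42.9 to 59.9. At 75.3 kb (chr1:161713039-161713280) the naive library had 71.7, the antigen-experienced library 72.0, the effector library 12.9 and the day 9 libraries 32.3 to 47.7. The effector library was the lowest at all 3. Effector against naive, the centred difference was -1.19 at 21.7 kb, -0.91 at 9.22 kb and -1.82 at 75.3 kb. In the effector library separate peaks lay close to 2 of these, 24.8 at 21.2 kb and 8.65 at 74.9 kb.

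Both splenocyte libraries, but not the effector library, held peaks at 22.4 kb and 83.7 kb from the Fasl start. At 22.4 kb the naive library had 63.2, the antigen-experienced library 61.8 and the day 9 libraries 29.3 to 43.0. At 83.7 kb the naive library had 49.8, the antigen-experienced library 45.8 and 7 day 9 libraries 20.5 to 30.4, and an effector peak of 29.6 stood at 83.1 kb. Only 1 Fasl region was more than 2-fold higher in the effector library, at 94.9 kb, with 14.9 in the effector and 3.73 in the naive library. Regions at 13.6 kb and 43.6 kb held peaks at day 9 alone, at 30.8 to 38.5 in 6 libraries and 7.17 to 12.8 in 5 libraries. Each lay within 198 bp of another region. At day 9 the 11 Fasl regions compared with naive ran from -0.61 to 1.40, with a median of -0.15.

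**Figure D3:**
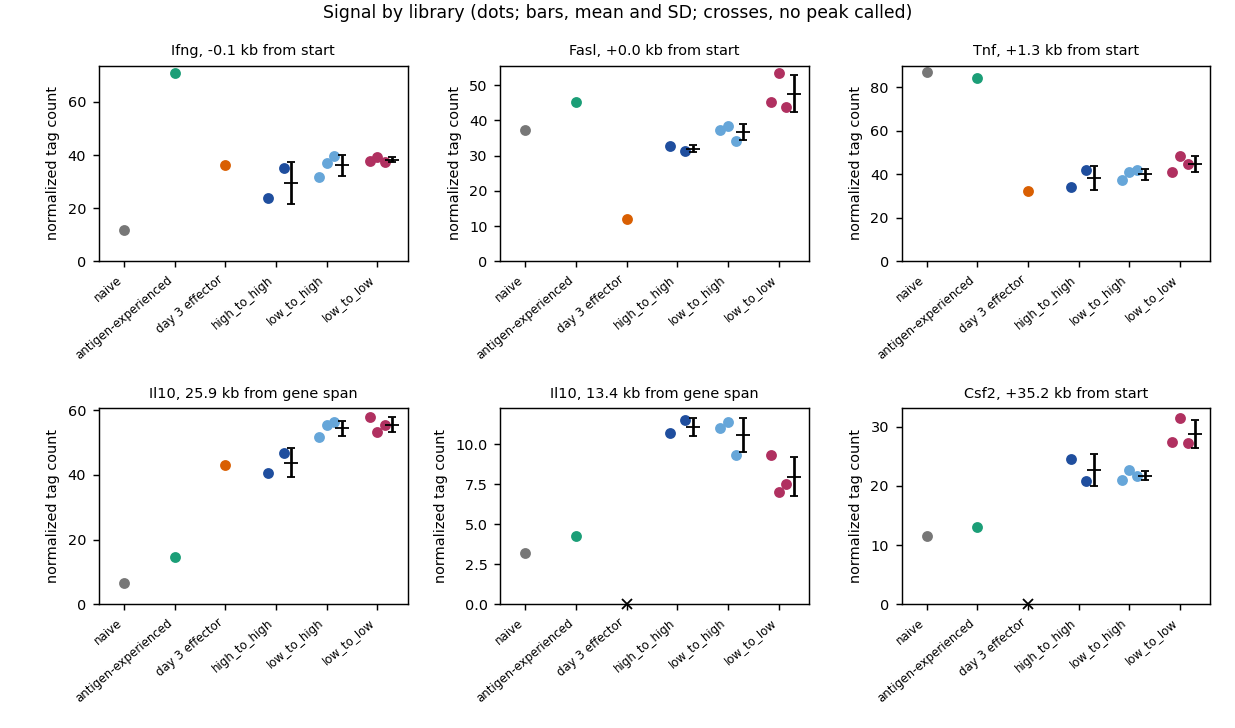
Normalized tag count (vertical axis, from 0) of 6 regions in every library (dots) by group, with the mean and SD of each day 9 group beside it and a cross where no peak was called. The Ifng start, Il10 at 25.9 kb and Csf2 at 35.2 kb stood above the naive library in every day 9 library. Tnf at 1.35 kb stood below it, and Fasl at the start was lowest in the effector library.

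Over all 5 genes, 22 regions were found in both the effector and the naive library. Of these, 7 were more than 2-fold higher in the effector library (5 at Ifng, 1 at Fasl and 1 at Il10), beside 11.6% of 32333 regions. A further 3 were more than 2-fold lower (1 at Ifng and 2 at Fasl), beside 9.2%. On the deposited scale without centring the balance turned, with 4 regions more than 2-fold higher in the effector library, beside 4.87% of all regions, and 6 lower, beside 35.4%. After centring, the member median was -0.05 and that of all regions compared -0.15. By presence, 33 member regions (36.3%) held a peak in the effector and not in the naive library, beside 30.4% of all regions. In the other direction 20 (22.0%) held one in the naive and not in the effector library, beside 22.6%.

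Between day 9 and naive, 30 member regions could be compared. Of these, 14 were more than 2-fold higher by the mean of the 8 day 9 libraries, beside 9.41% of 30804 regions, and 0 were lower, beside 2.5%. They were 9 of 14 regions at Ifng, 2 of 2 at Il10, 2 of 2 at Csf2, 1 of 11 at Fasl and 0 of 1 at Tnf. The 1 Fasl region, at -6.3 kb (chr1:161794563-161795017), had 27.1 to 49.7 at day 9 and 16.9 in the naive library. On the deposited scale without centring, 9 were higher, beside 5.87%, and 1 was lower, beside 7.83%. After centring, every day 9 library was above the naive library in 19 regions, beside 27.4%, and below it in 8, beside 43.5%. The member median was 0.93, and that of all regions -0.15.

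Regions of 1 gene share their libraries and are not independent, and a single naive library gives no measure of its own spread. Peak windows were 132 bp wide in the naive library and 172 bp in most others. With high_to_high replicate 2 alone, whose windows were 136 bp, 14 of 39 regions were more than 2-fold higher than naive, beside 7.79% of all regions. Each day 9 library alone gave 13 to 16 of 34 to 39 regions (33.3 to 45.7%), beside 7.46 to 9.94% of all regions.

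**Figure D4:**
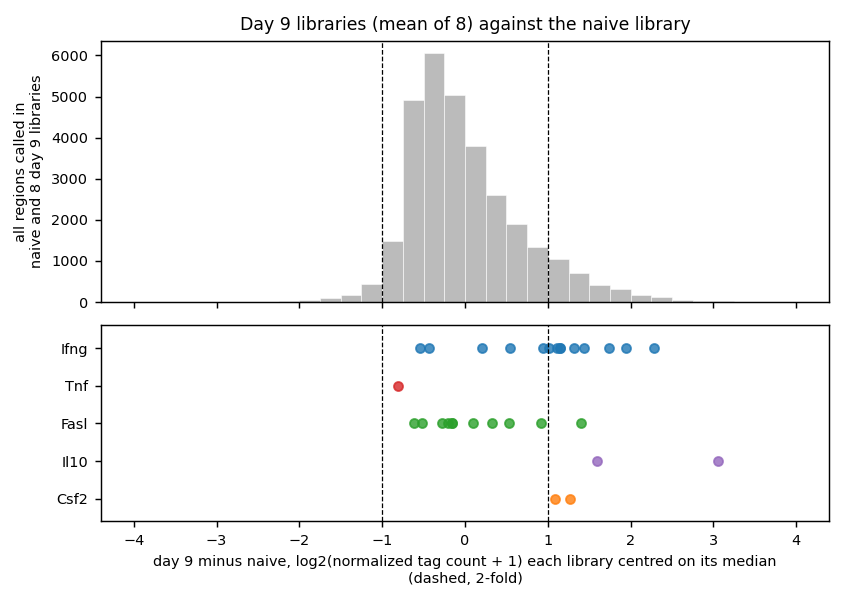
Difference between the mean of 8 day 9 libraries and the naive library, on the log2(normalized tag count + 1) scale after median centring of every library. The histogram shows all 30804 regions compared, the dots the 30 member regions by gene, and the dashed lines 2-fold. Dots beyond the right line are 9 of 14 at Ifng, 1 of 11 at Fasl and all those at Il10 and Csf2.

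Member regions were also compared between the day 9 libraries and the effector library. Of 23 regions found in all 9 libraries, 2 (8.7%) were more than 2-fold higher at day 9, beside 5.61% of 25916 regions. A further 3 (13.0%) were lower, beside 4.43%. The member median was -0.12. On the deposited scale without centring the balance turned, with 4 higher, beside 11.4%, 2 lower, beside 1.98%, and a member median of 0.26. After centring, every day 9 library was above the effector library in 5 regions, beside 30.1%, and below it in 10, beside 24.8%. The 2 regions more than 2-fold higher after centring were both at Fasl, over the start (1.23) and at 75.3 kb (1.13). The 3 lower ones were Ifng at -33.9 kb (-1.57), Fasl at 94.9 kb (-1.48) and the region inside Il10 (-1.27).

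The sorts at day 9 ask whether cells with high and low Tcf7-YFP differ, and whether YFP-high cells differ by their state at day 3. Across all 34383 regions found in the 8 day 9 libraries, limma with Benjamini-Hochberg adjustment called none of the 35 member regions in any of 4 comparisons at an adjusted p under 0.05. The calls over all regions were 0.332% for YFP-high against YFP-low, 0.596% for high_to_high against low_to_low, 0.032% for low_to_high against low_to_low and 0% for low_to_high against high_to_high. At an unadjusted p under 0.05, the member counts were 2, 3, 1 and 2 of 35 in that order, beside 8.07, 9.92, 5.56 and 5.09% of all regions. The member medians were -0.01, -0.05, -0.01 and 0.00028 on the log2 scale, and those of all regions -0.0049, -0.0074, -0.00097 and 0.0054. The median standard errors of the member regions were 0.126, 0.154, 0.137 and 0.154. In each of the first 3 comparisons 1 member region had an estimate beyond 0.5 in size, and in the last none had. The other 56 member regions were not tested, since 26 held no peak at day 9 and 30 held one in part of the libraries.

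The lowest p among members belonged to the Il10 region 13449 bp below the span, chr1:131006077-131006396. It had 10.7 and 11.5 in high_to_high, 11, 11.4 and 9.36 in low_to_high, and 9.34, 7.05 and 7.52 in low_to_low libraries. The naive library had 3.20, the antigen-experienced library 4.26 and the effector library no peak. After centring, this was the 1 tested member region in which every YFP-high library was above every YFP-low library, beside 3% of all regions. In limma the difference of YFP-high minus YFP-low was 0.62 ± 0.16 (SE, 5 against 3 libraries, adjusted p = 0.0798). It was 0.73 ± 0.20 for high_to_high minus low_to_low (limma adjusted p = 0.0883) and 0.54 ± 0.18 for low_to_high minus low_to_low (limma adjusted p = 0.569). Without low_to_low replicate 1 the region was called by limma for YFP-high against YFP-low (0.77, adjusted p = 0.0228) and for high_to_high against low_to_low (0.88, adjusted p = 0.0226). Without low_to_low replicate 2 the limma differences were 0.47 (adjusted p = 0.666) and 0.58 (adjusted p = 0.44) in that order. With a limma covariate for the tags in peaks they were 0.29 ± 0.25 (adjusted p = 0.999) and 0.39 ± 0.30 (adjusted p = 0.992). The share of tags in peaks was 9.01 to 10.2% in YFP-high and 10.4 to 12.5% in YFP-low libraries. With no overlap in this share, the fit cannot separate it from YFP level.

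At the Fasl start the deposited values did not overlap, with 31.3 to 38.5 in YFP-high and 43.8 to 53.5 in YFP-low libraries. It was also the 1 tested member region in which every YFP-high library was below every YFP-low library after centring, beside 2.48% of all regions. The limma difference of YFP-high minus YFP-low was -0.22 ± 0.09 (adjusted p = 0.507). On the deposited scale without centring limma called it (-0.44, adjusted p = 0.0348), on a scale where all tested regions have a median of -0.22. For low_to_high minus high_to_high, the lowest p belonged to Ifng at 39.9 kb, with 38.5, 34.8 and 27.4 in low_to_high and 45.7 and 35.3 in high_to_high libraries. These deposited values overlap between the groups. After centring, the log2 values were 5.70 and 5.34 in high_to_high and 4.90 to 5.26 in low_to_high libraries, with no overlap. How many of all regions do so in this comparison was not counted. The limma difference was -0.39 ± 0.14 (adjusted p = 0.923). For high_to_high minus low_to_low it was 0.45 ± 0.14 in limma (adjusted p = 0.151).

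The start of Ifng averaged 29.5 ± 7.8 in high_to_high (SD, n = 2), 36.1 ± 4.0 in low_to_high (SD, n = 3) and 38.2 ± 1.0 in low_to_low libraries (SD, n = 3). The strongest Il10 region averaged 43.8 ± 4.4 in high_to_high, 54.4 ± 2.3 in low_to_high and 55.5 ± 2.4 in low_to_low libraries. The high_to_high mean was the lowest at both. Tnf at 1.35 kb averaged 38.2 ± 5.5 in high_to_high, 40 ± 2.5 in low_to_high and 44.7 ± 3.7 in low_to_low libraries. Csf2 at 35.2 kb averaged 22.7 ± 2.7 in high_to_high, 21.7 ± 0.81 in low_to_high and 28.7 ± 2.4 in low_to_low libraries. These are deposited values, and the share of tags in peaks was also lower in YFP-high than in YFP-low libraries. None of the 4 regions was called by limma after centring.

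**Figure D5:**
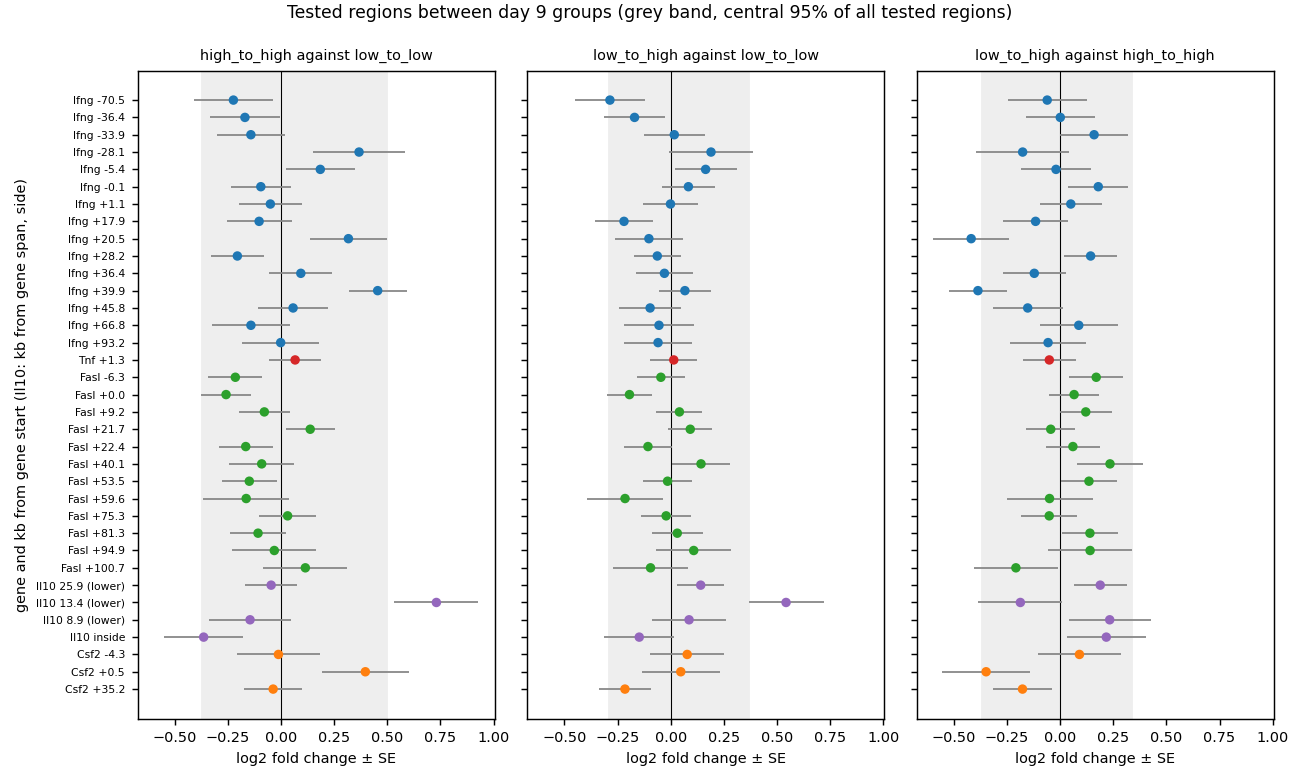
Log2 fold change with its standard error from limma for the 35 tested member regions (rows) in high_to_high minus low_to_low, low_to_high minus low_to_low and low_to_high minus high_to_high. The grey band holds the central 95% of all 34383 tested regions. The Il10 region 13.4 kb from the gene span lies right of the band in the first panel (0.73) and the second (0.54).

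Genes related to the members were tested in the same fits. Of 33 tested regions at 16 other cytokine and death ligand genes, limma called 0 in each of the 4 comparisons, and likewise 0 of 38 at 9 receptor genes of the 5 members. The lowest adjusted p of these lists over the comparisons was 0.093 in limma, at Csf1. At 10 genes of factors known to act on the members, limma called 1 of 64 regions, in high_to_high minus low_to_low alone. It lay 1556 bp from Tbx21, which encodes T-bet, an activator of Ifng, and was higher in high_to_high libraries by 0.93 ± 0.21 (limma adjusted p = 0.0251), beside the 0.596% of all regions called in that comparison. With a covariate for the tags in peaks limma called 0 of the 34383 regions there, this one included, and 1620 had an unadjusted p under 0.05. The share of tags in peaks did not overlap between YFP-high and YFP-low libraries, so that fit cannot separate it from YFP level.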

How the data were processed

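ATAC-seq peak lists of 11 libraries were used. Peaks were called on each library alone with HOMER findPeaks without a control, per the file headers, with a false-discovery threshold of 0.001, with 4-fold enrichment over 10 kb around the peak and a local Poisson p-value limit of 0.0001. Bowtie2, HOMER 4.10, DESeq2 (with no stated role) and mm10 appear in the submitters' processing notes. The deposited signal is the normalized tag count per 10 M tags, made by the authors. The deposited fold over local signal (a ratio) served the stricter threshold of 6, and the deposited score columns were not used.

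Peaks overlapping by at least 1 bp were merged (checked with bedtools 2.31.1), and a region took its strongest peak. Day 9 groups were compared by limma (version 3.58.1, R 4.3.3, eBayes with a trend) on log2(value + 1), each library centred on its median, over 34383 regions found in all 8 libraries. The YFP-high against YFP-low fit had 2 groups, and the other comparisons shared 1 model of 3 groups. The script was tested on simulated data. Single libraries were compared by fold, with no test. Total tags ran from 20.8 to 59.97 M, and spread between replicates covers counting error.

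Members, lists and tests were chosen with earlier results of these data known. For each gene, the text names the region over the start, the 3 strongest, up to 2 of each presence pattern, and the lowest p of each comparison. Regions named beyond that rule, among them Ifng at -36.4, -33.9, -5.39, 1.11 and 14.9 kb Csf2 at 0.48 kb, Fasl at -6.3 and 94.9 kb and the region inside Il10, were chosen after their values were seen.

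Deviations from the group mean were correlated between libraries. Same-numbered low_to_high and low_to_low libraries correlated at 0.136 to 0.298 in 3 pairs, and other pairs of these groups at -0.188 to 0.0209. These values do not establish a pairing. For high_to_high the same-number correlations were -0.0407 to -0.00121. With only 2 libraries in that group the deviations mirror each other, so they cannot show a pairing or its absence. The labels do not say what a number marks. The fit with the replicate number as a block called 0 member regions in all 4 comparisons.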

Additional observations from a re-analysis of the deposited data

Results flagged for a closer look

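Among the 5 YFP-high day 9 libraries, high_to_high replicate 2 held a peak in 58 of the 91 member regions, while the other 4 held one in 46 to 48. Its gap to the others was large for the range of the group (0.833 of the range). Over all regions, too, this library held peaks in the largest share, 55.91%, and the other 4 in 41.75 to 44.71%. It was also the deepest library (59.97 M tags) and had windows of 136 bp, and the part of depth and window width in this number was not tested. Of 19 groups of values examined this way, 1 stood out, and chance gives about 1 in 20.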

How the results depend on the processing

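With limma, member calls stayed at 0 in all 4 comparisons under other pseudocounts, filters on level or number of libraries, cyclic loess, a covariate for the tags in peaks, the replicate block (0 calls), summed peaks, a 50 bp overlap and the 6-fold threshold. Under the covariate limma called 0 of all 34383 regions in each comparison. On the deposited scale without centring limma called 1 of 35 for YFP-high against YFP-low, lower in YFP-high. Among all 34383 regions it called 79 higher and 1943 lower there. For high_to_high against low_to_low it called 7 of 35, all lower in high_to_high (5 at Fasl, 1 at Ifng, 1 at Il10). Among all 34383 regions it called 149 higher and 7261 lower in that comparison. Leaving out 1 replicate at a time gave 0 to 1 in both comparisons, the 1 being the Il10 region without low_to_low replicate 1. At 6-fold, regions in the effector library numbered 33 (main 55), and those in effector and not in naive 20 (main 33), which was also the number within 50 kb. On the deposited scale, effector against naive gave 4 higher and 6 lower (main 7 and 3), which turned the balance. Day 9 against naive had 9 higher and 1 lower on that scale and 9 higher at 6-fold (main 14 and 0), and 13 to 15 higher without 1 replicate. Day 9 against effector (main 2 higher, 3 lower) had 4 higher and 2 lower regions without centring, where its median turned to 0.26 (main -0.12), and 4 higher in high_to_high replicate 2, low_to_high replicate 1 or low_to_low replicate 1 alone, 1 higher within 50 kb, and 1 higher and 1 lower at 6-fold. The comparisons of day 9 with single libraries and the uncentred counts of single libraries were added after seeing the data. Depth limits which weak regions are listed, and regions missing from a list could not be tested.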

Other observations

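Other cytokine and death ligand genes were compared with the naive library in the same way. In the effector library 8 of 31 regions were more than 2-fold higher, beside 11.6% of all regions compared, and 0 were lower, beside 9.2%, with no test. The region inside Tnfsf10, the gene of the death ligand TRAIL, had 27.5 in the effector and 3.46 in the naive library, and one inside Lif had 34.5 in the effector and 7.06 in the naive library. The others lay at Il2, Il21, Il22, Il4, Tnfsf11 and Tnfsf14.

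At day 9, 6 of 28 regions were more than 2-fold higher than in the naive library, beside 9.41% of all regions compared, and 0 were lower, beside 2.5%. The region inside Lif had 35.6 to 46.0 at day 9, and a region 2436 bp from Il4, a cytokine gene of helper T cells, had 17.4 to 30.2 at day 9, against 3.86 in the naive library. The antigen-experienced library had 17.7 at the Il4 region and 23.2 at the Lif region. The other 4 lay at Tnfsf10 (2 regions), Il2 and Tnfsf14.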
